A study of Rattus norvegicus with 20 samples.

Results

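The subject here is the potassium channel genes of the rat outside the Kcnk family. They were taken as every gene whose symbol starts with Kcn, except those that start with Kcnk, whose channels carry a pair of pore loops in each subunit. Each gene was represented by 1 probe set that is annotated to it alone, the one with the highest mean log2 signal over all arrays. This gave 64 genes, from 110 probe sets, out of 14218 genes with such a probe set. Of the 64, 37 were above the filter on dim probe sets and were tested, and 27 were below it and are given by their levels.

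The RNA came from male Sprague Dawley rats, and the tissue was labelled brain cortex. Rats aged 20 weeks and weighing 250 to 300 g were profiled on 1-colour Affymetrix arrays, 1 array per rat. In the isoflurane group, 10 rats breathed 2% isoflurane, a volatile anaesthetic, in oxygen for 15 minutes, a dose of 1.4 MAC (the minimum alveolar concentration, a unit of anaesthetic potency). In the oxygen group, 10 rats breathed oxygen alone for the same time. Both groups then recovered for 6 hours before the brain was removed, and both had breathed oxygen. The submitters' design text gives gene networks as the purpose of the profiles. Values are log2 of the deposited array signal, on which a difference of 1 is a factor of 2. The number of arrays limits the precision.

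Potassium channels let potassium flow out of or into a cell and thereby set the resting potential, end action potentials and pace repeated firing. Voltage-gated (Kv) channels are built from 4 pore-forming subunits, to which cytoplasmic and membrane subunits attach. Inward rectifiers (Kir) pass current near rest and are steered by G proteins, ATP or lipids, and calcium- and sodium-activated channels tie the potassium current to the ions that enter during firing. In the cortex and the cerebellum different subunits serve different neurons, with Kv3 channels known for fast spiking in interneurons and cerebellar neurons.

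The arrays of both groups fell into 2 kinds by Pcp2, a gene of cerebellar Purkinje cells, and the rule for describing these genes uses that split at a linear signal of 4096 (12 on the log2 scale). The 11 Pcp2-high arrays, isoflurane replicates 1, 3, 7, 8 and 9 and oxygen replicates 5 to 10, had Pcp2 between 13.60 and 14.17. The 9 Pcp2-low arrays, isoflurane replicates 2, 4, 5, 6 and 10 and oxygen replicates 1 to 4, had it between 4.46 and 10.67. The summed signal of 9 cerebellar markers, Pcp2 among them, was 16.09 to 16.56 on Pcp2-high arrays and 11.61 to 13.58 on Pcp2-low arrays. That of 8 cortical and forebrain markers was 12.23 to 13.07 on Pcp2-high arrays and 14.28 to 14.61 on Pcp2-low arrays. Fezf2 of deep-layer cortical neurons was at 1.31 to 6.96 on the Pcp2-high arrays and at 8.69 to 9.43 on the Pcp2-low arrays, so the label brain cortex went against its own markers on the Pcp2-high arrays. Isoflurane and oxygen are therefore compared in a model with a term for the set (a block), and again inside each set. Among Pcp2-low arrays, isoflurane replicates 2, 4, 5 and 6 were set off from the other 5, with correlations of 0.976 to 0.982 among themselves and 0.855 to 0.922 with the other 5, and results that rest on them are given with and without them. In bulk tissue, fewer cells of a type and less RNA per cell cannot be told apart.

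Many potassium channel genes differed in level between the array sets. For 18 of the 37 tested genes (48.6%) the Pcp2-high and Pcp2-low arrays did not overlap, against 18.8% of all 18625 tested probe sets. Of these 18, 13 were lower and 5 higher on Pcp2-high arrays. Of all tested probe sets, 9.34% were lower there and 9.47% higher without overlap. Among the 13 lower genes, Kcna4, Kcns1 and Kcns3 had Pcp2-high means (5.46, 6.07 and 6.20) under the filter level of 6.62. They were kept because the filter used the mean over all arrays. A difference of means over 1 was found for 9 tested channel genes that were lower (7.59% of all tested probe sets) and 5 that were higher (8.04%). The median absolute difference between the set means was 0.82 over the tested channel genes and 0.39 over all tested probe sets. The sets were made from these arrays, so these values are a description and carry no test.

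**Figure D1:**
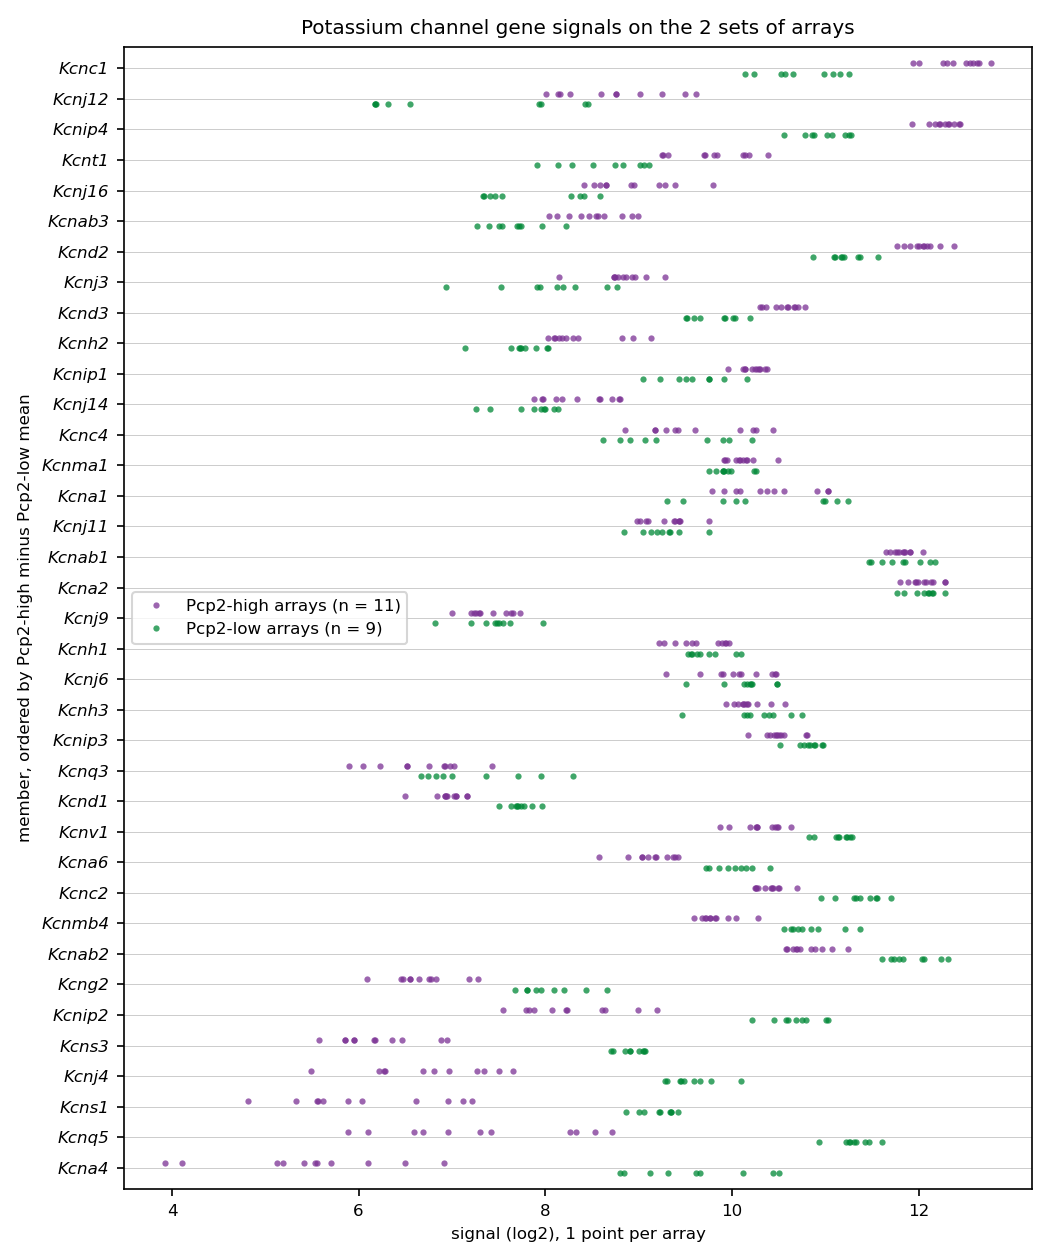
Log2 signal (x axis) of the 37 tested potassium channel genes (rows, ordered by the Pcp2-high minus the Pcp2-low mean), with 1 point per array, 11 Pcp2-high arrays in purple above 9 Pcp2-low arrays in green. Kcnc1 at the top differs by 1.68 and Kcna4 at the bottom by -4.14, both with no overlap between the sets, while Kcna2 differs by 0.01.

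Among Kv1 (Shaker) subunits, which form axonal channels that limit excitability, the 4 tested genes ranged from no visible difference to the largest one seen. Kcna4, whose subunit gives a fast inactivating current, had 3.93, 5.53 and 6.91 as its lowest, median and highest value on Pcp2-high arrays, against 8.80, 9.61 and 10.51 on Pcp2-low arrays. Its sets were far apart, with a difference of -4.14, although its Pcp2-high mean of 5.46 was under the filter level of 6.62. Kcna6 was lower too (9.13 ± 0.25 on 11 Pcp2-high arrays and 10.02 ± 0.22 on 9 Pcp2-low arrays, mean ± SD). Kcna2, a partner of Kcna1 along axons, was at 12.06 ± 0.15 on Pcp2-high arrays and 12.05 ± 0.16 on Pcp2-low arrays, and Kcna1 overlapped likewise (difference 0.05). Of the untested members, Kcna5 was lower on every Pcp2-high array (5.56 ± 0.79) than on any Pcp2-low array (7.46 ± 0.32). It was the only one of the 27 untested genes whose sets did not overlap.

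The Kv3 (Shaw) genes, whose channels open and close fast enough for high firing rates, split 3 ways. Kcnc1 ran from 11.94 over a median of 12.51 to 12.77 on Pcp2-high arrays, against 10.14, 10.65 and 11.26 on Pcp2-low arrays, a difference of 1.68. Kcnc2 lay on the other side, with 10.40 ± 0.14 on Pcp2-high arrays and 11.37 ± 0.23 on Pcp2-low arrays. Kcnc4 overlapped, with 9.63 ± 0.53 on Pcp2-high arrays and 9.38 ± 0.58 on Pcp2-low arrays. Kv4 (Shal) genes carry the current that damps dendritic excitation. Kcnd2 (difference 0.83) and Kcnd3 (0.73) were higher on Pcp2-high arrays, and Kcnd1 was lower there (-0.78), each without overlap in the probe set used. A dimmer tested probe set of Kcnd2 overlapped, reaching down to 11.18 on Pcp2-high arrays and up to 11.49 on Pcp2-low arrays. One of Kcnd3 did so too (8.49 and 9.13).

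Silent Kv subunits form no channel alone and modify Kv2 channels. All 4 tested ones were lower on the Pcp2-high arrays without overlap. Kcns1 was at 6.07 ± 0.80 there and 9.20 ± 0.19 on Pcp2-low arrays. On Pcp2-high arrays the means of Kcns1 and Kcns3 (6.20) were under the filter level of 6.62, so both were dim there. Kcns3 differed by -2.72, Kcng2 by -1.37 and Kcnv1 by -0.82. The only Kv2 gene found, Kcnb2, was dim, with 2.33 ± 0.68 on Pcp2-high arrays and 4.91 ± 1.98 on Pcp2-low arrays. Kcnq5, a subunit of the M-type channel that muscarinic receptors close, had 5.88, 7.31 and 8.71 as lowest, median and highest value on Pcp2-high arrays, against 10.94, 11.31 and 11.61 on Pcp2-low arrays. Its difference of -3.97 came with no overlap, whereas Kcnq3 (-0.62) overlapped. In the ether-a-go-go family (EAG, ERG and ELK) the 3 tested genes overlapped between the sets, Kcnh3 differing by -0.10, Kcnh1 by -0.09 and Kcnh2 by 0.65. Dim Kcnh7 had the largest difference of that family, -2.31.

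Auxiliary subunits of Kv channels went in both directions. Of the KChIP genes, calcium-binding proteins that carry Kv4 channels to the membrane, Kcnip4 was at 12.26 ± 0.15 on Pcp2-high arrays and 10.99 ± 0.24 on Pcp2-low arrays, while Kcnip2 was at 8.27 ± 0.53 on Pcp2-high arrays and 10.68 ± 0.26 on Pcp2-low arrays. Neither gene's sets overlapped, and those of Kcnip1 (difference 0.62) and Kcnip3 (-0.32) did. Kcnab2, a cytoplasmic beta subunit of Kv1 channels, was lower on the Pcp2-high arrays with no overlap (difference -1.11), and Kcnab1 differed by 0.01. None of the 4 MinK-related genes, small membrane subunits, passed the filter. Among them Kcne4 differed by -0.50 and Kcne2 by 1.44 with overlap.

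**Figure D2:**
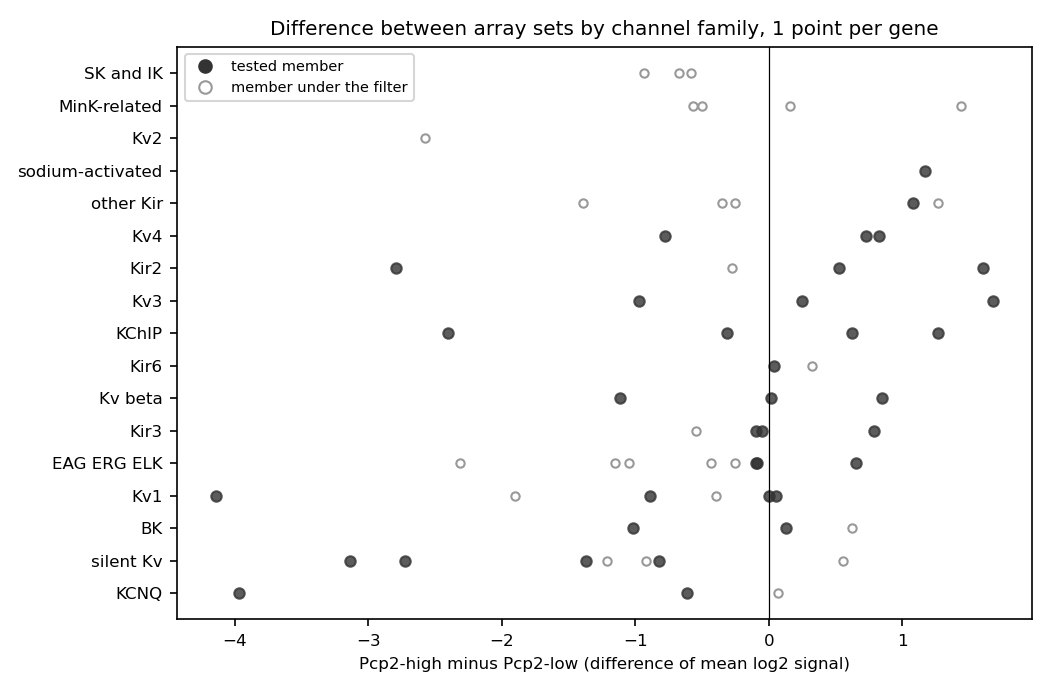
Pcp2-high minus Pcp2-low difference of the mean log2 signal (x axis) for all 64 genes by channel family (rows), 1 point per gene, filled for the 37 tested genes and open for the 27 under the filter. Silent Kv and KCNQ genes that were tested lie left of 0. Tested genes lie on both sides in Kv1, Kv3, Kv4, KChIP, Kir2, Kv beta, Kir3, BK and the EAG, ERG and ELK family.

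Inward rectifiers had a mixed pattern as well. In the Kir2 family, which holds the resting potential, Kcnj4 had 5.49, 6.81 and 7.65 as lowest, median and highest value on Pcp2-high arrays, against 9.28, 9.48 and 10.10 on Pcp2-low arrays. It lay lower without overlap, and Kcnj12 (1.60) and Kcnj14 (0.53) were higher on Pcp2-high arrays with overlap. The G protein-gated Kir3 genes overlapped, Kcnj6 at 10.05 ± 0.36 on Pcp2-high arrays and 10.14 ± 0.29 on Pcp2-low arrays, Kcnj3 differing by 0.79 and Kcnj9 by -0.05. For the ATP-sensitive channels that couple metabolism to excitability the differences were 0.04 in Kcnj11 and 0.32 in Kcnj8. Of the other Kir genes, glial Kcnj16 differed by 1.08 with overlap, and Kcnj1 by -1.39 at levels near the floor. Among calcium- and sodium-activated channels, Kcnmb4, the neuronal beta subunit of the large-conductance (BK) channel, was at 9.83 ± 0.19 on Pcp2-high arrays and 10.85 ± 0.28 on Pcp2-low arrays. Kcnma1, the BK pore, differed by 0.13, the small-conductance channel gene Kcnn1 by -0.93, and Kcnt1, the sodium-activated Slack channel, by 1.17 without overlap.

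The first comparison asked which channel genes differed 6 hours after isoflurane with the array set held as a block. Kcnc4, a Kv3 subunit with fast inactivation, and Kcnip2, a KChIP that carries Kv4 channels, were lower after isoflurane, and no channel gene was higher. Kcnc4 had 9.30, 8.85, 9.18, 9.17 and 10.09 on the 5 Pcp2-high isoflurane arrays, against 9.39, 9.91 and 10.44 (lowest, median and highest) on the 6 Pcp2-high oxygen arrays. Its Pcp2-low values were 8.90, 9.07, 8.80, 8.62 and 9.19 after isoflurane and 9.91, 9.97, 9.74 and 10.21 after oxygen. In the Pcp2-low set every isoflurane array was below every oxygen array, and in the Pcp2-high set 4 of the 5 isoflurane arrays were below the lowest oxygen array, with replicate 9 among the oxygen values. Over both sets the level of Kcnc4 was 9.12 ± 0.40 after isoflurane and 9.92 ± 0.37 after oxygen (SD, n = 10 each), and in limma the difference was -0.78 ± 0.16 SE (adjusted p = 0.0118).

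Kcnip2 had 7.54, 7.83, 7.88, 7.80 and 8.61 on the Pcp2-high isoflurane arrays, against 8.08, 8.43 and 9.20 (lowest, median and highest) on the Pcp2-high oxygen arrays. On Pcp2-low arrays it had 10.60, 10.58, 10.22, 10.45 and 10.75 after isoflurane and 11.01, 10.79, 10.69 and 11.03 after oxygen. The groups overlapped in both sets by a single isoflurane array, replicate 9 in the Pcp2-high set and replicate 10 in the Pcp2-low set. Its difference was -0.51 ± 0.15 SE (limma adjusted p = 0.0397). Kcnip2 also was lower on the Pcp2-high than on the Pcp2-low arrays (difference -2.41), and within the Pcp2-high set the summed cortical and forebrain markers were at 12.23, 12.46, 12.30, 12.39 and 12.99 after isoflurane and 12.23 to 13.07 after oxygen. Their part in the Kcnip2 value was not tested.

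These 2 genes were 5.41% of the 37 tested, against 7.37% of all 18625 tested probe sets in either direction, 4.79% lower and 2.58% higher. The median difference was -0.10 over the tested channel genes and 0.00 over all tested probe sets, with 26 channel genes below 0 and 11 above. Without isoflurane replicates 2, 4, 5 and 6 no channel gene and no probe set passed, although 8 channel genes and 3016 probe sets had an unadjusted p under 0.05. Kcnc4 then differed by -0.62 (adjusted p = 0.173) and Kcnip2 by -0.52 (adjusted p = 0.214). Without isoflurane replicate 9 alone, 6 channel genes passed, all lower: Kcnc4 (-0.90), Kcnip2 (-0.59), Kcnj6 (-0.39), Kcnh3 (-0.33), Kcnh1 (-0.31) and Kcnmb4 (-0.29). They were 16.2% of the 37, against 15.8% of all tested probe sets in that fit (9.23% lower and 6.54% higher). Leaving out single arrays, Kcnc4 passed in 20 of 20 fits (adjusted p 0.000411 to 0.0294) and Kcnip2 in 6 of 20 (adjusted p 0.00805 to 0.0767).

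Kcnj6, the GIRK2 subunit through which GABA-B and opioid receptors open potassium channels, did not pass. It had 9.90, 9.88, 9.29, 9.66 and 10.47 on Pcp2-high isoflurane arrays, against 10.01, 10.18 and 10.46 (lowest, median and highest) on Pcp2-high oxygen arrays. On Pcp2-low arrays it had 10.13, 10.48, 10.16, 9.91 and 9.51 after isoflurane and 10.20, 10.22, 10.19 and 10.48 after oxygen. In each set 4 of the 5 isoflurane values were below all oxygen values, with replicates 9 and 4 at the level of the highest oxygen arrays. The limma difference was -0.31 ± 0.13 SE (adjusted p = 0.119), and it was -0.38 within the Pcp2-high set and -0.23 within the Pcp2-low set (adjusted p = 0.383 and 0.351).

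The stretches of 250 bases before the annotated start of Kcnc4 and Kcnip2 are shown because these genes were lower after isoflurane with the set as a block. They come from RefSeq on build GRCr8, are read 5′ to 3′ on the strand of the gene, and carry in capitals each GGGCGG, the GC box bound by Sp1 and related factors, or its reverse complement CCGCCC. Kcnc4 lies on the minus strand at chr2:197788434-197788683 and holds 1 box, and Kcnip2 on the minus strand at chr1:254613899-254614148 and holds 2.
Kcnc4: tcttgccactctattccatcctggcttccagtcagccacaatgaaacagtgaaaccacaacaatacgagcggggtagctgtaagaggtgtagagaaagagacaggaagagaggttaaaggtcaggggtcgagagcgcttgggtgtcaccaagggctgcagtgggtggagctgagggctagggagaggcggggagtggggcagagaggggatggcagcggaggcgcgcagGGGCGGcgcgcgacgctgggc
Kcnip2: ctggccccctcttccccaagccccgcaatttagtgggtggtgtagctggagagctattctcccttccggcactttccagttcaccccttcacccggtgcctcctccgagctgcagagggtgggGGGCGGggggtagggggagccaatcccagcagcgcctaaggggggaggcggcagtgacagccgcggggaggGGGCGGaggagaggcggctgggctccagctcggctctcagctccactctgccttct
Of 33469 stretches of the same length in the table, 30.5% held the box on either strand, and of 48 channel genes with an entry 28 did (58.3%). The first share counts stretches and the second counts genes with the box in any of their stretches, so they are not like for like. The share of G and C was 60.8% before Kcnc4 and 68% before Kcnip2, against a median of 51.2% in the table. A match describes letters and does not show a site.

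Within the Pcp2-high arrays alone, 5 after isoflurane and 6 after oxygen, no channel gene and no probe set passed in limma (0% of 18625). At an unadjusted p under 0.05 there were 6 channel genes and 2376 probe sets. The median difference was -0.14 over the channel genes and 0.00 over all tested, and 28 of 37 channel genes had a negative value. Kcnc4 differed by -0.57 ± 0.24 SE (adjusted p = 0.37) and Kcnip2 by -0.63 ± 0.23 SE (adjusted p = 0.349). Without isoflurane replicate 9, 6 channel genes (16.2%) and 1086 probe sets (5.83%, with 4.49% lower) passed. The 6, all lower, were Kcnq5 (-1.41), Kcnip2 (-0.80), Kcnt1 (-0.68), Kcnj6 (-0.54), Kcnh1 (-0.47) and Kcnc1 (-0.45). That array had the highest summed forebrain markers among the Pcp2-high isoflurane arrays (12.99, against 12.23 to 12.46 on the other 4), and the oxygen arrays spanned 12.23 to 13.07. Groups of no tested channel gene were free of overlap in this set, against 0.988% of all tested probe sets (0.58% below and 0.408% above).

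In the Pcp2-low arrays, 5 after isoflurane and 4 after oxygen, Kcnc4 and Kcnmb4 were lower after isoflurane, and Kcnj12, Kcna1, Kcna4 and Kcnc1 were higher. These 6 of 37 (16.2%) compare with 18.6% of all tested probe sets, of which 7.42% were lower and 11.2% higher. The median difference was -0.13 over the channel genes and 0.00 over all tested. For Kcnc4, with the values given above, the difference was -1.04 ± 0.14 SE (limma adjusted p = 0.00578). The 3'/5' signal ratio of Gapdh and beta-actin is a measure of RNA integrity in which higher means more 3' bias. In this set its log2 was 1.28 to 1.59 on isoflurane replicates 2, 4, 5 and 6 and 0.754 on replicate 10. It was 0.755 to 1.23 on the oxygen arrays of the set. In the Pcp2-high set it was 0.626 to 0.987 after isoflurane and 0.706 to 0.957 after oxygen. Within the Pcp2-low set, cerebellar markers differed between isoflurane replicates 2, 4, 5 and 6 and replicate 10, with the oxygen arrays between them. Their summed level was 11.70, 11.64, 11.88 and 11.61 on isoflurane replicates 2, 4, 5 and 6 and 13.58 on replicate 10, against 12.09 to 12.78 on the oxygen arrays. Pcp2 itself, a Purkinje cell gene, is part of that sum. Its own signal was 4.46 to 5.93 on those 4 isoflurane arrays and 10.67 on replicate 10, against 7.63 to 8.78 on oxygen arrays. Of the 9 cerebellar markers, all tested, 0 passed, and their median difference was -1.15. Within this set, the part of the 3'/5' ratio and of these markers in the channel values was not tested. Over all 20 arrays with the set as a block, the ratio was added as a covariate. In that fit 3 of 37 channel genes, all lower, and 1712 of 18625 probe sets passed in limma, against 2 and 1372 without it.

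Kcnmb4 had 10.66, 10.70, 10.64, 10.75 and 10.56 on the isoflurane arrays, against 10.85, 10.92, 11.21 and 11.38 on the oxygen arrays. All isoflurane values were below all oxygen values, and the difference was -0.43 ± 0.12 SE (limma adjusted p = 0.0284). With single arrays left out Kcnmb4 passed in 3 of 9 fits (adjusted p 0.013 to 0.0794). Among voltage-gated genes, Kcna4 had 10.51, 9.66, 10.44, 10.12 and 9.61 after isoflurane, against 9.12, 9.31, 8.80 and 8.84 after oxygen. No isoflurane array reached down to the oxygen arrays, and the rise was 1.05 ± 0.21 SE (limma adjusted p = 0.0108).

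Kcnc1 also rose without overlap, with 11.16, 11.09, 10.99, 11.26 and 10.65 after isoflurane and 10.23, 10.14, 10.53 and 10.57 after oxygen. Its difference was 0.66 ± 0.14 SE (limma adjusted p = 0.0129). Kcna1, a Kv1 subunit of axons, had 11.00, 11.13, 10.98, 11.25 and 10.04 after isoflurane, against 9.91, 9.47, 9.30 and 10.14 after oxygen. Replicates 2, 4, 5 and 6 were above all oxygen arrays and replicate 10 was among them, and the difference was 1.17 ± 0.25 SE (limma adjusted p = 0.0126). The Kir2 gene Kcnj12 had 8.43, 7.95, 7.93, 8.46 and 6.19 after isoflurane, against 6.32, 6.55, 6.17 and 6.18 after oxygen. Here again replicate 10 sat with the oxygen arrays, and the difference was 1.49 ± 0.41 SE (limma adjusted p = 0.0287). Kcnj12 passed in 2 of 9 fits with a single array left out (adjusted p 6.54e-05 to 0.0756), whereas Kcnc4, Kcna1, Kcna4 and Kcnc1 passed in 9 of 9. The axonal gene Kcna2 did not pass (difference 0.24, adjusted p = 0.0737), although its isoflurane values of 12.12, 12.15, 12.10, 12.28 and 12.14 were all above its oxygen values of 11.84, 12.06, 11.98 and 11.77.

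**Figure D3:**
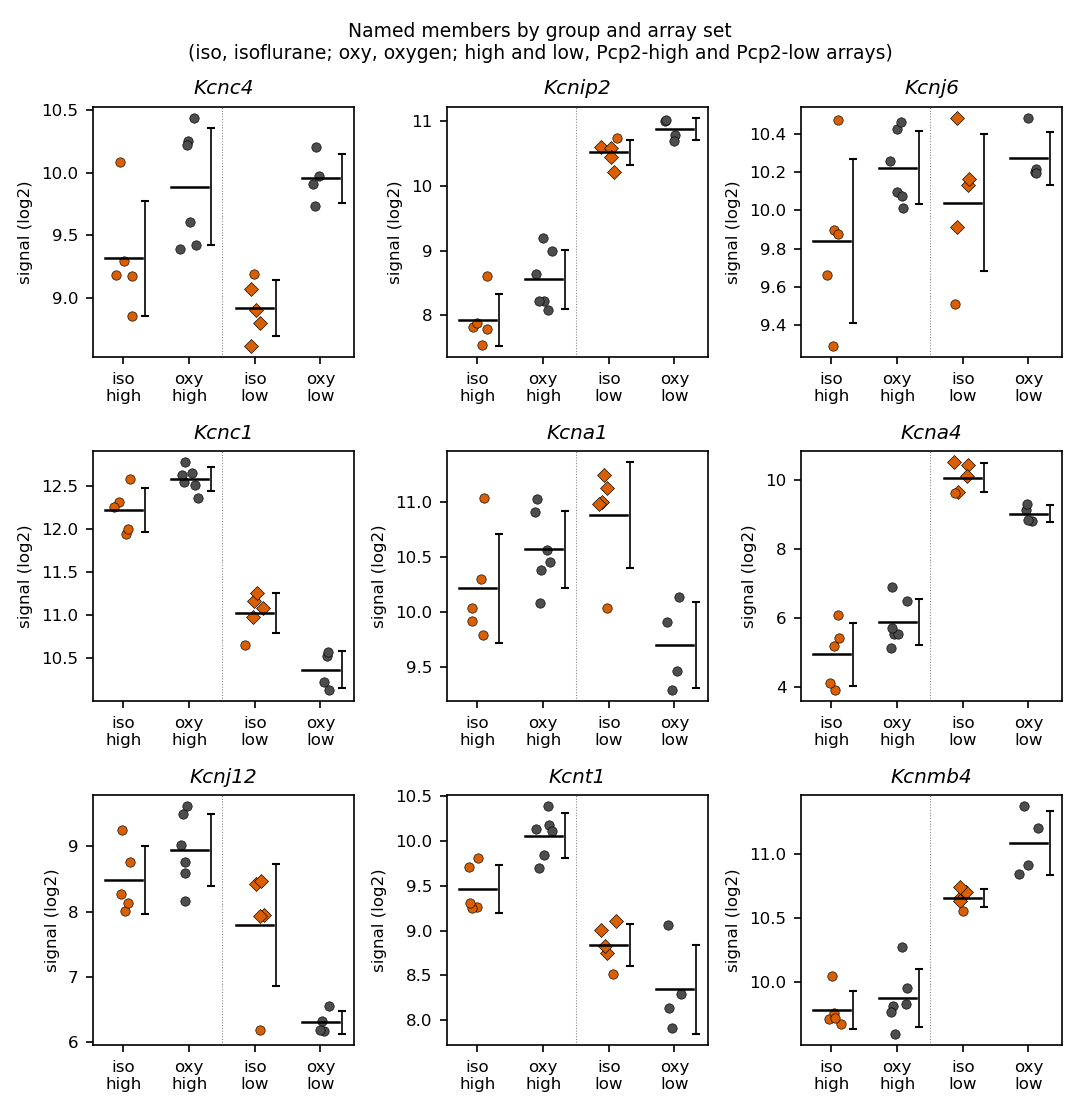
Log2 signal (y axis) of 9 named channel genes on each array, by group (iso, isoflurane; oxy, oxygen) and array set (high and low for Pcp2), with the mean as a line and the SD as a bar. Diamonds are isoflurane replicates 2, 4, 5 and 6; for Kcna1 and Kcnj12 the remaining Pcp2-low isoflurane array lies at 10.04 and 6.19, among the oxygen arrays, and for Kcnc4 it lies at 9.19, below them.

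Channel genes whose groups did not overlap in the Pcp2-low set were Kcnc4 and Kcnmb4 below and Kcna2, Kcna4 and Kcnc1 above, 5 of 37, against 13.2% of all tested probe sets (6.52% below and 6.7% above). The untested ELK gene Kcnh4 also lay below, with 5.75, 5.67, 4.23, 3.59 and 6.11 after isoflurane and 7.08, 6.40, 6.33 and 6.58 after oxygen. When isoflurane replicates 2, 4, 5 and 6 were left out, replicate 10 stood alone against 4 oxygen arrays, its spread taken to be theirs, and no channel gene and no probe set passed, 4 channel genes and 876 probe sets having an unadjusted p under 0.05. The values were then -0.77 for Kcnc4, -0.53 for Kcnmb4, 0.59 for Kcna4, 0.29 for Kcnc1 and 0.34 for Kcna1, and the sign turned for Kcnj12 (-0.12). Without replicate 10 instead, 9 channel genes passed, among them the 6 above with Kcnip2 (-0.42), Kcnip4 (-0.37) and Kcnh3 (-0.32), all 3 lower. These 9 were 24.3% of the channel genes tested, against 33.6% of all tested probe sets. With arrays centred on their medians, which put the median of all tested probe sets at -0.21, 13 channel genes passed (35.1%, against 28.2% of all tested probe sets), 9 lower and 4 higher, and the 6 above kept their direction.

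With no filter on dim probe sets, 8 of the 64 channel genes passed within the Pcp2-low arrays (12.5%), the same share as the 12.5% of all 31042 probe sets. They were the 6 above with Kcnj13 and Kcnb2, which lie under the filter. Kcnb2, a delayed rectifier of the Kv2 family, had 6.63, 7.21, 6.92, 6.91 and 3.00 after isoflurane, against 4.05, 3.47, 3.77 and 2.22 after oxygen. Kcnj13, the Kir7.1 channel of the choroid plexus and retinal epithelium, had 7.81, 7.41, 7.19, 7.36 and 6.28 after isoflurane and 6.41, 6.12, 5.99 and 6.10 after oxygen. For both genes isoflurane replicates 2, 4, 5 and 6 were above all oxygen arrays and replicate 10 was among them. The difference was 2.75 for Kcnb2 (limma adjusted p = 0.0477) and 1.06 for Kcnj13 (limma adjusted p = 0.0403). Without those 4 arrays, an alternative chosen after seeing the data, it was -0.38 for Kcnb2 (limma adjusted p = 0.967) and 0.13 for Kcnj13 (limma adjusted p = 0.979), and no channel gene and no probe set passed, 5 channel genes and 1478 probe sets having an unadjusted p under 0.05.

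The stretches before Kcnc1 and Kcna4 are shown because these voltage-gated genes both rose in the Pcp2-low arrays without overlap. Kcnc1 lies on the plus strand at chr1:106038997-106039246 and Kcna4 on the plus strand at chr3:114215086-114215335, with the GC box in capitals as before.
Kcnc1: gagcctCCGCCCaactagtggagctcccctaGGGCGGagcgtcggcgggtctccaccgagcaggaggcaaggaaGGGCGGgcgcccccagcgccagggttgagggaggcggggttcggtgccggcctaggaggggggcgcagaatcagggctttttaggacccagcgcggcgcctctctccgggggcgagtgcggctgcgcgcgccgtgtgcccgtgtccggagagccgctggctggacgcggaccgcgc
Kcna4: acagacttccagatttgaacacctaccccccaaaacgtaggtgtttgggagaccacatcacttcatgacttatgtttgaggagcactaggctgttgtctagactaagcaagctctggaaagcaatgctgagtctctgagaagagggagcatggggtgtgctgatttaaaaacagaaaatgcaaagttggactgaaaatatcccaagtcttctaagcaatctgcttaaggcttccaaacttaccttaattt
The stretch before Kcnc1 held 3 boxes and was 74.4% G and C, and that before Kcna4 held 0 and was 42.8%. Kcna1 and Kcnj12 are named without a sequence.

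The next comparison tested whether the isoflurane difference itself differed between the array sets, as the Pcp2-high value minus the Pcp2-low value. It passed for 5 of 37 channel genes (13.5%), all with a lower value on Pcp2-high arrays, against 10.2% of all tested probe sets (7.61% lower and 2.58% higher). The genes were Kcna4 (-1.99 ± 0.53 SE, adjusted p = 0.0229), Kcnj12 (-1.94 ± 0.51 SE, adjusted p = 0.0213), Kcna1 (-1.53 ± 0.35 SE, adjusted p = 0.0124), Kcnt1 (-1.08 ± 0.27 SE, adjusted p = 0.0158) and Kcnc1 (-1.02 ± 0.18 SE, adjusted p = 0.00657). Within the Pcp2-high set, where Kcna4 was dim (mean 5.46, filter level 6.62), the 5 isoflurane differences were -0.94, -0.46, -0.35, -0.59 and -0.36. Within the Pcp2-low set, where Kcnj12 was dim on the oxygen arrays (6.17 to 6.55), they were 1.05, 1.49, 1.17, 0.49 and 0.66. Without isoflurane replicates 2, 4, 5 and 6 none of them passed, their values lying between -1.53 for Kcna4 and -0.34 for Kcnj12. In that fit 0 channel genes and 13 probe sets (0.0698%) passed, and 3 channel genes and 789 probe sets had an unadjusted p under 0.05.

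For the Slack gene Kcnt1, the Pcp2-high values were 9.71, 9.26, 9.25, 9.31 and 9.81 after isoflurane, against 9.70, 10.13 and 10.39 (lowest, median and highest) after oxygen. On Pcp2-low arrays it had 8.75, 8.83, 9.11, 9.01 and 8.51 after isoflurane, against 9.06, 7.91, 8.13 and 8.29 after oxygen. The isoflurane arrays thus lay mostly below the oxygen arrays in the first set and mostly above them in the second, with overlap in both. The interaction was 0.47 for Kcnc4 (adjusted p = 0.343), -0.27 for Kcnip2 (adjusted p = 0.584) and -0.15 for Kcnj6 (adjusted p = 0.75). Over all 37 channel genes, 17 had a negative value in both sets, 3 a positive value in both, 11 were negative on Pcp2-high and positive on Pcp2-low arrays, and 6 the reverse.

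**Figure D4:**
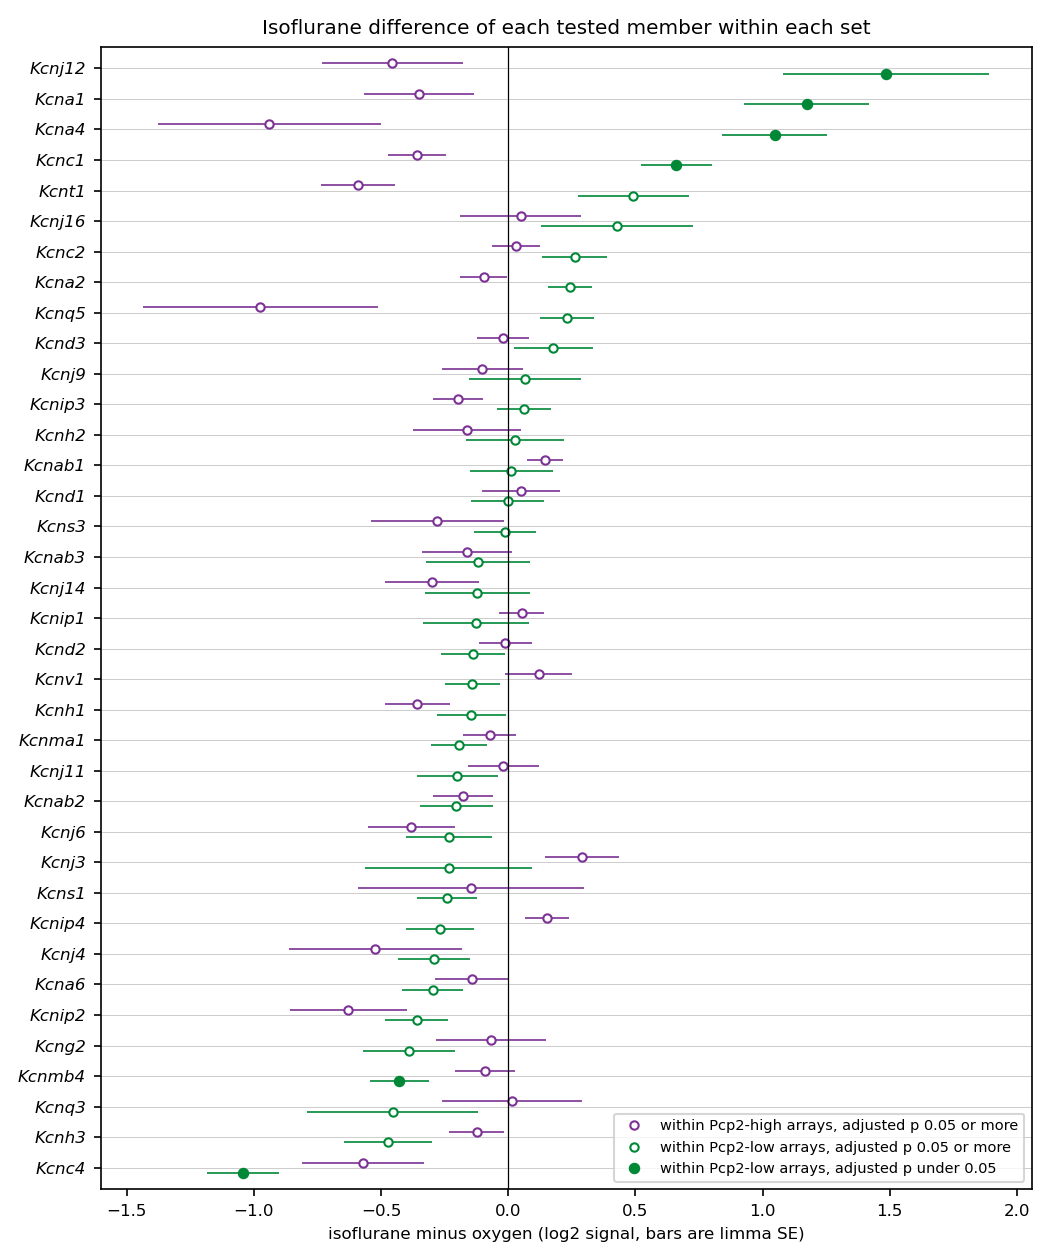
Isoflurane minus oxygen in log2 signal (x axis, bars are the limma SE) for the 37 tested channel genes (rows, ordered by the Pcp2-low value), within Pcp2-high arrays in purple and within Pcp2-low arrays in green, filled where the adjusted p was under 0.05. Kcnj12, Kcna1, Kcna4 and Kcnc1 lie right of 0 in the Pcp2-low set and left of it in the Pcp2-high set, and Kcnc4 lies left of 0 in both (-0.57 and -1.04).

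By family, the genes that passed in the Pcp2-low set came from Kv1, Kv3, Kir2 and BK. In Kv1, 2 of 4 tested genes rose and none fell, in Kv3 1 of 3 rose and 1 fell, in Kir2 1 of 3 rose, and in BK 1 of 2 fell. None passed among the 3 Kv4, 4 silent Kv, 3 EAG, ERG and ELK, 2 KCNQ, 3 Kv beta, 4 KChIP and 3 Kir3 genes tested. The largest value in these families was -0.47 for Kcnh3 (adjusted p = 0.0786), an ELK channel of forebrain neurons. Kcnq5, which differed by -0.97 within the Pcp2-high set (adjusted p = 0.397), was at 0.23 within the Pcp2-low set (adjusted p = 0.146).

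Probe sets of the same gene did not always run together. This held for levels between the array sets as well. Of the genes without overlap there, Kcnd2, Kcnd3, Kcnip4, Kcnip2, Kcnab2, Kcnc2 and Kcnt1 each had another tested probe set whose sets overlapped. The other tested probe set of Kcnj4 did not overlap. Kcnc4, Kcnj6, Kcna1, Kcna4, Kcnc1, Kcnj12 and Kcnmb4 had a single tested probe set each, while 16 channel genes had several. A second, dim probe set of Kcnc4 (mean 5.03, under the filter) did not share its lower values after isoflurane on Pcp2-low arrays. It had 5.54, 4.91, 5.27, 4.69 and 5.80 there after isoflurane, against 3.76, 2.85, 4.15 and 6.06 after oxygen. A dim probe set of Kcnj6 (mean 6.34, under the filter) was higher on isoflurane replicates 2, 4, 5 and 6. On Pcp2-low arrays its values were 8.24, 8.10, 8.13, 7.83 and 5.02 after isoflurane, against 6.30, 6.49, 5.97 and 5.85 after oxygen. The remaining dim probe sets of Kcnj6 overlapped between the groups there. When the probe sets of a gene were averaged, Kcnc4 did not pass with the set as a block. With the set as a block, the other tested probe set of Kcnip2 differed by -0.44 (adjusted p = 0.359). A dimmer probe set of Kcnip4 was higher after isoflurane (0.86, adjusted p = 0.0272) where the one used here differed by -0.04, and a dimmer one of Kcnab2 was lower (-0.61, adjusted p = 0.0235) where the one used differed by -0.19. In the Pcp2-low set both dimmer probe sets of Kcnc2 were higher (1.19 and 1.59, adjusted p = 0.014 and 0.011), against 0.26 in the one used. There also, a dimmer probe set of Kcnd2 was higher (0.89, adjusted p = 0.009) and one of Kcnj4 lower (-0.86, adjusted p = 0.016), against -0.14 and -0.29 in those used. Of the 3 tested probe sets of Kcnt1 the interaction was -1.08, -0.72 and -0.34.

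Genes outside the Kcn symbols that encode channel partners were also read, among them Dpp6 and Dpp10 of Kv4 channels, Abcc8 and Abcc9 of ATP-sensitive channels, Cntnap2, Adam22 and Lgi1 of axonal Kv1 channels and Amigo1 of Kv2 channels. Of 10 found, 9 were tested. None passed with the set as a block, within the Pcp2-high set or in the interaction. In the Pcp2-low set 1 passed, Amigo1 at -0.51 (limma adjusted p = 0.0355), against 18.6% of all tested probe sets.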

How the data were processed

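Gene expression was measured on 20 arrays, 10 per group. The deposited values are linear array intensities that the authors made, per the submitters' processing notes, with Affymetrix Expression Console and its MAS5 method, whose versions are not given in the sources used here. Each array's mean after trimming 2% at each end was 500.1 to 500.2 and its median 7.20 to 7.57 on the log2 scale, so changes are relative to an array's average transcript. Detection calls were not used here.

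A floor of 1 was set (it replaced 2079 values) before log2, and nothing else was normalized. Leaving out controls, 31042 probe sets remained, of which 18625 had a mean log2 above the 40th percentile (6.62) and were tested. Genes were named by the platform annotation where it gave 1 symbol (20832 probe sets), updated by gene ID through a GRCr8 table, and promoter sequences came from RefSeq. The tests used lmFit and eBayes (trend on) of limma 3.58.1 under R 4.3.3, two-sided, with Benjamini-Hochberg adjustment over all tested probe sets and a threshold of 0.05, and were tested on simulated data. Spread was estimated from the arrays in each fit. Python 3.11.15, pandas 2.3.3 and matplotlib 3.10.9 made summaries and plots.

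The channel genes, the array sets, the marker and partner lists and the tests were chosen with earlier results of these data known. Named were Kcnc4 and Kcnj6, genes past the threshold, the brightest gene and that with the largest set difference in each family, and genes whose groups did not overlap within a set. Genes in lists of alternatives or of dimmer probe sets were named because they passed there. Arrays are of separate rats per the labels, and p-values thus reflect variation among rats. Replicate numbers were not used to pair rats. Same-number deviations correlated by -0.26 to 0.23. Alternatives were other normalizations, pseudocounts, filters and variance models, no set block, the difference averaged over both sets, averaging a gene's probe sets, a replicate block, array weights, a covariate for the 3'/5' ratio, and arrays left out.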

Additional observations from a re-analysis of the deposited data

Results flagged for a closer look

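In 9 of 92 groups of arrays tested, a single array lay far from the rest of its group by Dixon's criterion, where chance gives about 5% of groups. Isoflurane replicate 10 was the lowest of the 5 Pcp2-low isoflurane arrays for Kcna1 (10.04, the others 10.98 to 11.25), Kcnh3 (9.46, the others 10.13 to 10.39) and Kcnj12 (6.19, the others 7.93 to 8.46). Isoflurane replicate 9 was the highest of the 5 Pcp2-high isoflurane arrays for Kcnab2 (11.08, the others 10.58 to 10.68) and Kcnmb4 (10.05, the others 9.68 to 9.76). Isoflurane replicate 8 was the lowest of these for Kcnd2 (11.85, the others 12.04 to 12.12). Oxygen replicate 10 was the highest of the 6 Pcp2-high oxygen arrays for Kcnh3 (10.57, the others 10.12 to 10.26) and the lowest for Kcnj3 (8.14, the others 8.74 to 8.93). Oxygen replicate 4 was the highest of the 4 Pcp2-low oxygen arrays for Kcnj6 (10.48, the others 10.19 to 10.22).

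For 5 channel genes the isoflurane difference differed between the array sets in the limma interaction, by -1.02 for Kcnc1, -1.53 for Kcna1, -1.08 for Kcnt1, -1.94 for Kcnj12 and -1.99 for Kcna4 (Pcp2-high minus Pcp2-low). None of these passed without isoflurane replicates 2, 4, 5 and 6.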

How the results depend on the processing

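With the set as a block, 2 channel genes passed. The count was 1 with quantile normalization (Kcnc4), 1 with no filter, 1 with no block for the set, 4 with the difference averaged over both sets, 1 when a gene's probe sets were averaged (Kcnip4, higher), and 0 without isoflurane replicates 2, 4, 5 and 6. Leaving out single arrays gave 1 to 6. Over all probe sets the count of 1372 became 915 with no filter, 74 with no block (0.397%) and 3142 averaged. Within Pcp2-high arrays the count of 0 became 0 to 6 with single arrays left out, 6 without isoflurane replicate 9. Within Pcp2-low arrays the count of 6 became 13 with arrays centred on their medians, 0 without the 4 arrays and 4 to 9 with single arrays left out, and 5249 probe sets passed with centring, 3782 lower and 1467 higher, where 3469 passed without it, 1382 lower and 2087 higher. For the interaction the count of 5 became 3 with a filter at the 60th percentile (Kcnc1, Kcna1 and Kcnt1 of 26 then tested, where Kcna4 and Kcnj12 were under the filter and have no value), 0 without the 4 arrays and 4 to 6 with single arrays left out. Centring on medians gave 7 there, with Kcnip4 (0.66) and Kcnmb4 (0.58) higher, and moved the median of all tested probe sets to 0.25. Signs turned for Kcnj6 with the mean of its probe sets (0.22 with the set as a block), for Kcnj12 in Pcp2-low arrays without the 4 arrays (-0.12), for the dim gene Kcnb2 there with no filter (-0.38), and for the interaction of Kcnj6 with centring (0.10) and without the 4 arrays (0.38). The cause was not tested. With the replicate number as a block 0 channel genes and 29 probe sets passed. The numbers share no stated origin, and only 1 of 10 isoflurane arrays deviated most like the oxygen array of its own number. Pcp2-high arrays have no value without the 4 arrays, which are not among them. The count of genes whose sets did not overlap was 18 to 22 in all alternatives run. Signal near background limits the 27 untested genes.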

Other observations

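Marker genes of other cell types and regions were read within the Pcp2-low arrays beside the channel genes, with 18.6% of all tested probe sets passing there. Among 6 interneuron markers tested, Gad2 (1.10) and Gad1 (0.35), the enzymes of GABA synthesis, were higher after isoflurane and Sst (-0.53) was lower, with a median difference of -0.01. Among 4 markers of excitatory neurons Slc17a7 (-0.93), a vesicular glutamate transporter, was lower while the median was 0.48. In the cortical and forebrain list 1 of 7 was lower, Neurod6 (-0.77), with a median of -0.11.

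Of the glial lists, 2 of 6 astrocyte markers were lower, Gfap (-0.78) and Aldh1l1 (-0.51), with a median of -0.17. The oligodendrocyte gene Sox10 (-0.91) was lower, 1 of 5 with a median of 0.24, and the microglial gene Csf1r (-0.56) was lower, 1 of 5 with a median of -0.05. Of 5 endothelial and mural markers Rgs5 (1.47), a pericyte gene, was higher, with a median of 0.24. Of 4 choroid plexus markers Ttr (-2.97), a thyroid hormone carrier, was lower, with a median of -0.17, and their summed level ran from 11.77 to 12.21 on Pcp2-low isoflurane arrays and from 11.57 to 14.03 on Pcp2-low oxygen arrays. No marker of blood (2 tested), striatum (4) or thalamus and hippocampus (3) passed. The part of these cell types in the channel values was not tested.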
